A study of Rattus norvegicus with 36 samples.

Results

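Whole blood of unirradiated rats was compared at 4 weeks and at 1 week, to describe how far blood miRNAs vary between control groups that received no radiation, and how far libraries of the same group vary. Members were the 6 blood libraries labelled 0 Gy, of 36 libraries in the series: 3 at 4 weeks and 3 at 1 week. All rats were female, of the strain WAG/RijCmcr, and 9 to 10 weeks old when the irradiated groups were treated. The controls were of matched age, were kept under the same conditions and carried no transgene, deletion or drug. A week label counts time from the day on which other rats received 15 Gy to the whole thorax, so the 4 week controls were sampled later and at a higher age than the 1 week controls. Blood was drawn by cardiac puncture and its RNA was extracted without any separation of cells. The study states that 1 library pools the RNA of 3 rats, while the labels give 3 rats per group, and p-values here measure the spread between libraries. The other 30 libraries, of irradiated blood and of lung, were used only for the shared estimate of the spread and where they are named.

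MicroRNAs are short RNAs that guide a silencing complex to messenger RNAs, chiefly by pairing of the seed, bases 2 to 8 of the miRNA. Whole blood carries mostly the miRNAs of red cells, above all miR-486-5p, miR-451-5p, miR-144 and miR-16-5p, which accumulate during red cell maturation. White cells and platelets add others, such as miR-150-5p of lymphocytes, miR-223-3p of myeloid cells and miR-126a of platelets and endothelium. A change in a level in whole blood may reflect fewer cells of a type or less of the RNA per cell, and these cannot be told apart here.

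Several facts of the libraries bear on every value. The table lists 458 known rat miRNAs, 116 homologs of miRNAs of other species and 373 new loci. It puts miR-486-5p, a rat miRNA by its name, among the homologs, so counts and rankings of known rat miRNAs here leave it out. Total counts were 2046544, 2340177 and 2077913 in the 4 week libraries, against 2147559, 2172822 and 1725584 in the 1 week libraries. Replicate 3 of each week stood apart from the other libraries of its week. In another listing of the same counts by the study, 1 week replicate 1 and an irradiated library (15 Gy, 1 week, replicate 2) stand under each other's number, while the other 34 libraries match. The labels were followed, and the calls, the median spreads and the composition of the libraries were also computed with these libraries exchanged. Markers of blood were present in part. Red cell miRNAs dominated, miR-142-3p of leukocytes had 29 to 94 counts, and miR-223-3p had 4 to 40. The defining platelet and endothelial miRNA miR-126a-3p had 4 to 11 counts, and the other arm of its precursor, miR-126a-5p, had 24 to 57. Markers of other tissues were present to different degrees. Of heart and skeletal muscle markers, miR-1-3p had 0 or 1 counts, miR-133a-3p had 2 to 9, and miR-208a-5p and miR-499-5p had none in any library, which allows up to 3 counts in each. The 8 lung epithelial miRNAs summed to 13 to 15 counts in the 4 week libraries, against 18 to 21 counts in the 1 week libraries, and none of them passed the filter on low counts. Of the liver miRNAs miR-122-5p had 0 to 10 counts and miR-192-5p 51 to 334. Of those of smooth muscle and mesenchyme, miR-143-3p had 186 to 328 counts and miR-10a-5p 84 to 212, while miR-145-5p had 0 to 3 and miR-214-3p none.

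The mature sequences of the miRNAs that the results turn on follow, from RefSeq for the rat build GRCr8, 5′ to 3′, with the seed in capitals. Of the 141 known rat miRNAs tested, 127 matched a RefSeq entry by name, and they fell into 20 groups of shared seed with 52 miRNAs. Abundant miRNAs of blood are shown first, since they are described library by library.
miR-191a-5p: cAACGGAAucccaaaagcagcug
miR-451-5p: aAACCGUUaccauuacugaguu
miR-16-5p: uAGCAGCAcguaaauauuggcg
miR-181a-5p: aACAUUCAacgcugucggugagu
miR-92a-3p: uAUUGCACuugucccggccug
miR-25-3p: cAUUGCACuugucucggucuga
let-7i-5p: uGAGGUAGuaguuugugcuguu
let-7f-5p: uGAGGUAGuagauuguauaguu
let-7d-5p: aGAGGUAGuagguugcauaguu
miR-3596b: aACUAUGCaaccuacuaccu
In this group miR-92a-3p and miR-25-3p share 1 seed, as do the 3 let-7 members. miR-3596b is the reverse complement of part of let-7d-5p, and the pair lie on opposite strands of chromosome 17 (GRCr8, 16322275 to 16322294 within 16322273 to 16322294). Of the matched miRNAs with small p, the 6 described library by library are shown next.
miR-23b-3p: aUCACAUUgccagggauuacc
miR-24-3p: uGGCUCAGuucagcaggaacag
miR-18a-5p: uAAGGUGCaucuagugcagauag
miR-652-3p: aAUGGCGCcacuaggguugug
miR-351-5p: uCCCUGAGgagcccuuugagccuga
miR-421-3p: aUCAACAGacauuaauuggg
No 2 of these 6 share a seed.

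The read counts of all 6 libraries were dominated by miR-486-5p, a red cell miRNA of the Ank1 locus. It took 92.2%, 90.3% and 90.9% of the counts in the 4 week libraries, against 89.0%, 91.9% and 95.9% in the 1 week libraries. These are shares of reads. The study proposes that sequencing may overrepresent miR-486-5p, since RT-qPCR of rat blood put it near the level of miR-451-5p. The weeks overlapped, and the mean share in the 4 week group was 91.1% ± 0.957, against 92.3% ± 3.48 in the 1 week group (SD over n = 3; two-sided exact permutation p = 0.8, where the smallest p that 3 against 3 allows is 0.1). All other miRNAs together had 159977, 226843 and 188786 counts in the 4 week libraries, against 236705, 175175 and 70470 counts in the 1 week libraries. Hence 1 week replicate 3, with the largest share of miR-486-5p, had the fewest counts left for all other miRNAs together. The direction of the difference in share turned when that library was left out, to 0.677 percentage points above the 1 week mean.

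The number of miRNAs with at least 1 count was 432, 445 and 455 in the 4 week libraries, against 428, 413 and 365 in the 1 week libraries. The groups did not overlap, and the difference of 42 miRNAs had an exact permutation p of 0.1, the smallest possible. Among known rat miRNAs the groups did overlap, with 228 to 232 at 4 weeks and 196 to 232 at 1 week (exact permutation p = 0.4). New loci with a count numbered 133 to 147 at 4 weeks, against 103 to 129 at 1 week (exact permutation p = 0.1). The number of miRNAs with a count was lowest in the library with the fewest counts outside miR-486-5p, and the part of that depth in the difference was not tested.

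**Figure D1:**
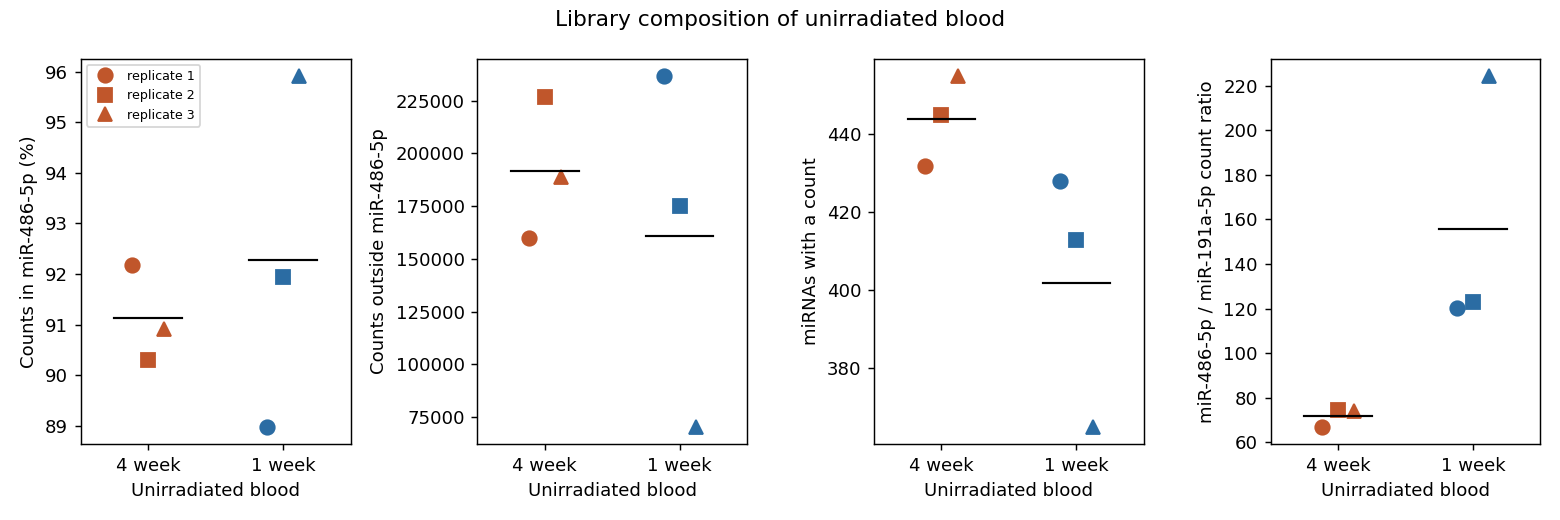
Share of counts in miR-486-5p (percent), counts outside miR-486-5p, number of miRNAs with a count, and miR-486-5p counts divided by miR-191a-5p counts, in each unirradiated blood library. Points are libraries, shapes are replicates and lines are group means. The ratio lies between 67.1 and 74.7 in the 4 week libraries and between 120 and 224 in the 1 week libraries, and 1 week replicate 3 is extreme in all 4 panels.

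Across all miRNAs, the main fit called 1 new locus and no known rat miRNA between the 2 weeks. That call was lost with limma-voom and with 1 week replicate 1 exchanged for the irradiated library. With edgeR's quasi-likelihood test over all 18 blood libraries, 289 miRNAs were tested, of which 141 were known rat miRNAs, 38 homologs and 110 new loci. At a Benjamini-Hochberg adjusted p under 0.05, 1 miRNA was higher at 4 weeks (0.346% of those tested) and 0 were lower. The smallest adjusted p of a known rat miRNA was 0.961. At an unadjusted p under 0.05, 9 were on the 4 week side (3.11%) and 3 on the 1 week side (1.04%), and 4 of the 9 and none of the 3 were known rat miRNAs. DESeq2 also called 1 higher and 0 lower, with 10 and 3 at an unadjusted p under 0.05. An edgeR fit of the 6 control libraries alone had 3 and 0 at that unadjusted threshold, and 0 of these were known rat miRNAs. The median log2 fold change of known rat miRNAs was -0.01, with 67 positive and 74 negative.

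The absence of calls has a limited reach. The 95% interval of the log2 fold change lay within 2-fold in both directions for 45 of the 141 known rat miRNAs and within 4-fold for 119. Among the 59 known rat miRNAs with a mean of 50 CPM (counts scaled to the library's depth and its TMM factor) or more, 30 had an interval within 2-fold. The intervals of these 59 reached a median of 0.81 on the log2 scale to each side. Over all 141 the median was 0.95. Changes smaller than that could be missed for most blood miRNAs with 3 libraries a group. Larger changes could be missed too, since the intervals are not adjusted for the 289 tests. miR-193-3p and miR-1306-5p, with log2 fold changes of 1.51 and 1.91, were not called (edgeR adjusted p = 0.961 for both).

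The called locus lies on chromosome 19 of the build rn4, at 25638547 to 25638840, 294 bases in the name given to it, and is listed as a new miRNA. It had 58, 80 and 77 counts in the 4 week libraries, against 0, 0 and 0 counts in the 1 week libraries. Against a floor of 3 counts over the 1 week group, the counts in the row of this locus were at least 55.7-fold higher at 4 weeks (35.7 ± 3.65 CPM, SD, n = 3; edgeR adjusted p = 7.9e-06). That bound covers counting error only. Whether a 0 in this row means that the RNA was absent was not tested. All 12 irradiated blood libraries had counts at this locus, so the 3 libraries at 0 were the 1 week controls. In lung, 1 of 18 libraries was at 0, a library of 8132 counts in all. The change in blood minus that in lung passed the test for this locus alone (adjusted p = 0.000171, 1 of 576 miRNAs, 0.174%), and 36 miRNAs had an unadjusted p under 0.05 in that test.

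The counts of the locus were set beside those of miR-27a-3p, a miRNA of the miR-23a cluster, a comparison chosen after the values were seen. miR-27a-3p had 35, 38 and 41 counts in the 4 week libraries, against 68, 45 and 15 counts in the 1 week libraries, so it was counted in the libraries where the locus was at 0. In the 15 blood libraries with counts at the locus, the ratio of locus to miR-27a-3p ran from 0.731 to 2.11, with a median of 1.66. The lowest of these ratios, 0.731, belonged to the irradiated library whose number is exchanged with 1 week replicate 1 in the other listing. With those libraries exchanged the locus had 19 counts in 1 of the 3 libraries taken as 1 week controls and was not called (adjusted p = 1), nor did its change in blood minus that in lung pass (adjusted p = 0.894). In blood limma-voom did not call it either (adjusted p = 0.0908). It was called with each of the 6 libraries left out in turn, 1 week replicate 1 included.

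Counts of all or none were common among new loci. Of 76 new loci that reached 20 CPM in at least 1 of the 6 libraries, 28 (36.8%) were at 0 in another. The same held for 1 of 23 homologs and for 0 of 94 known rat miRNAs. Of the 373 new loci in the table, 209 overlap the position of another. The called locus on chromosome 19 is among them: the study lists a shorter new locus inside its position, whose counts were not compared here. Rows of overlapping loci can differ: chr17_7351451_7351539 had 3254 counts in 4 week replicate 1 and 0 in the other libraries. The overlapping chr17_7351428_7351565 had 647 to 3558 counts in all 6.

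No known rat miRNA passed the test, and those with the smallest p in each direction are described as values. miR-193-3p had 30.4, 12.4 and 66.3 CPM at 4 weeks, against 15.5, 11.1 and 11.5 CPM at 1 week. The log2 fold change was 1.51 (SE 0.53, unadjusted p = 0.013, edgeR adjusted p = 0.961), and the groups overlapped because 4 week replicate 2 lay below 1 week replicate 1. miR-23b-3p, of the miR-23b cluster, had 28.7, 25.4 and 20.3 CPM at 4 weeks, against 13.2, 16.7 and 16.03 CPM at 1 week, with no overlap and a log2 fold change of 0.69 (SE 0.27, adjusted p = 0.961). miR-24-3p, a partner in both miR-23 clusters, had 19.7, 11.4 and 17.1 CPM at 4 weeks, against 7.76, 7.42 and 12.6 CPM at 1 week. For miR-18a-5p, of the proliferation-linked miR-17-92 cluster, 1 library carried the difference: it had 39.4, 5.47 and 7.21 CPM at 4 weeks, against 7.76, 7.42 and 3.44 CPM at 1 week.

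miR-652-3p, with 96.9, 54.7 and 103.7 CPM at 4 weeks, against 47.0, 48.2 and 53.8 CPM at 1 week, also did not overlap (log2 fold change 0.78, SE 0.38, adjusted p = 0.961). Its 4 week replicate 2 was within 1 CPM of 1 week replicate 3. The other 3 of the 8 smallest p on the 4 week side, miR-15b-3p, miR-1306-5p and miR-872-3p, had log2 fold changes of 1.44, 1.91 and 0.94 with overlapping groups.

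On the other side the smallest p belonged to miR-351-5p, which shares its seed with miR-125a-5p, at 10.7, 11.4 and 16.7 CPM at 4 weeks, against 15.97, 14.8 and 37.8 CPM at 1 week. Its log2 fold change was -0.80 (SE 0.40, adjusted p = 0.961), and 1 week replicate 3 lay above the other 5 libraries. miR-421-3p had 11.3, 16.9 and 13.5 CPM at 4 weeks, against 17.8, 25.4 and 17.2 CPM at 1 week, without overlap. The remaining 6, miR-30c-2-3p, miR-215, miR-3473, miR-98-5p, let-7a-5p and miR-27a-3p, had log2 fold changes from -0.42 to -1.13, and their groups overlapped. Among homologs, the sequence listed as eca-miR-1271 had 37.2, 13.4 and 12.2 CPM at 4 weeks, against 3.65, 3.09 and 11.5 CPM at 1 week, and cgr-miR-1285 and bta-miR-2898 had log2 fold changes of 0.99 and 0.74, none of them past the adjusted threshold.

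**Figure D2:**
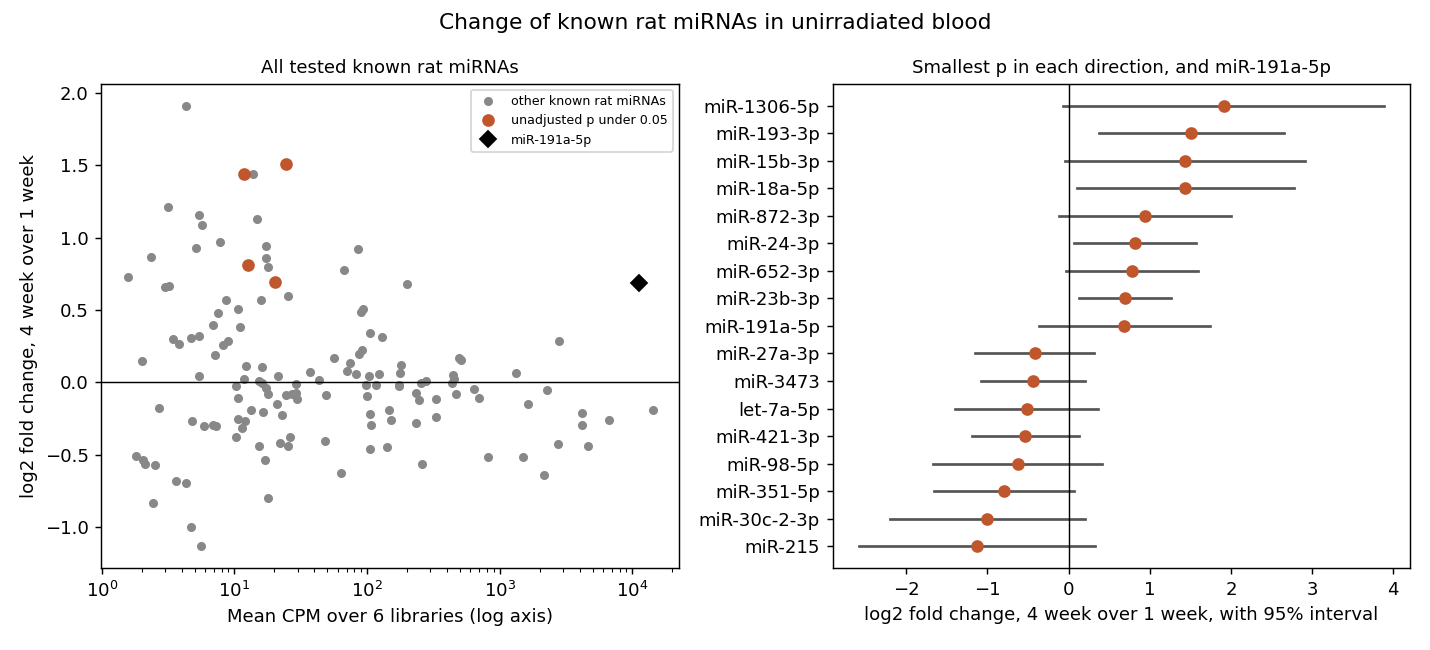
Left, log2 fold change (4 week over 1 week) of the 141 tested known rat miRNAs against their mean CPM over the 6 libraries (log axis). Right, log2 fold change with its 95% interval for the 8 smallest p in each direction and for miR-191a-5p. The 4 miRNAs with an unadjusted p under 0.05 all lie above 0 and below 30 CPM, and the intervals of the other 13 cross 0.

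miR-191a-5p was the most abundant known rat miRNA whose groups did not overlap, and the study used miR-191-5p as the reference of its RT-qPCR assays. It had 15853, 14060 and 11501 CPM at 4 weeks, against 7245, 10045 and 8450 CPM at 1 week. All 3 4 week libraries lay above all 3 1 week libraries, yet the log2 fold change of 0.69 (SE 0.49, 95% interval -0.37 to 1.74) did not pass the test (edgeR unadjusted p = 0.184, adjusted p = 0.961). The count of miR-486-5p divided by that of miR-191a-5p, which needs no scaling between libraries, was 67.1, 74.7 and 74.0 at 4 weeks, against 120, 123 and 224 at 1 week (exact permutation p = 0.1, the smallest possible). In the 12 irradiated blood libraries this ratio had a median of 66.4 and ran from 57.3 to 167. miR-425-5p, from the same primary transcript as miR-191a-5p, had 63.7, 99.9 and 89.2 CPM at 4 weeks, against 90.3, 94.0 and 58.4 CPM at 1 week, with a log2 fold change of 0.06. Scaled by miR-191a-5p itself, the median log2 fold change of all tested miRNAs was -0.69, beside 0.01 under TMM. This restates the change of miR-191a-5p with the sign turned and is no separate result.

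In all, CPM did not overlap between the weeks for 15 miRNAs above (5.19%) and 5 below (1.73%) at 4 weeks, and 8 and 3 of these were known rat miRNAs. Besides the 4 already named, the known rat miRNAs were miR-185-5p, miR-183-5p, miR-222-3p, miR-107-3p and miR-3553 above, and miR-221-3p and miR-374-5p below. miR-3553 lies opposite miR-183-5p on the other strand, with 2 to 21 counts beside 3 to 22 counts, so they may share reads and are uncertain as separate values. miR-221-3p and miR-222-3p, neighbours in 1 cluster with the same seed, lay on opposite sides, with log2 fold changes of -0.37 and 0.48.

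**Figure D3:**
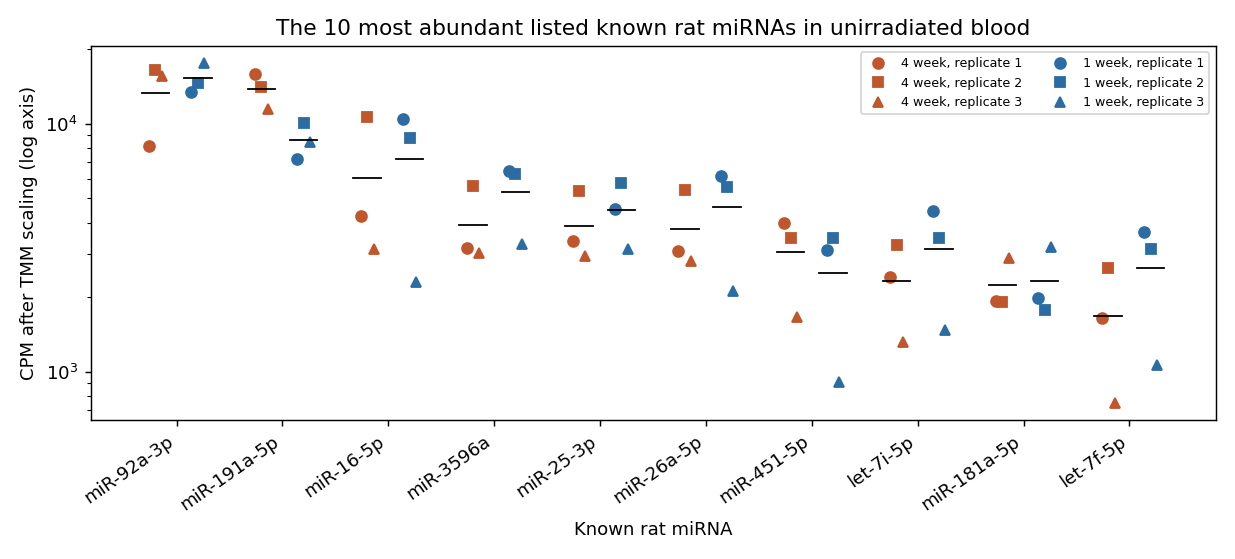
CPM after TMM scaling (log axis) of the 10 most abundant miRNAs listed as known rat miRNAs, which leaves out miR-486-5p, in the 4 week and the 1 week libraries. Points are libraries, shapes are replicates and lines are group means. miR-191a-5p is the only one of the 10 whose groups do not overlap, and replicate 3 is the lowest of its week in both weeks for 7 of the 10, all but miR-92a-3p, miR-191a-5p and miR-181a-5p.

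Red cell miRNAs differed in how far they varied inside the groups. miR-16-5p, a repressor of cell cycle genes that is abundant in red cells, had 4246, 10689 and 3130 CPM at 4 weeks, against 10493, 8785 and 2297 CPM at 1 week. miR-451-5p, a red cell miRNA processed by Ago2 rather than Dicer, had 3990, 3476 and 1671 CPM at 4 weeks, against 3111, 3469 and 910 CPM at 1 week. Both were lowest in replicate 3 of either week. Counts of miR-486-5p divided by those of miR-451-5p gave 266, 302 and 509 at 4 weeks, against 280, 356 and 2082 at 1 week, so 2 red cell miRNAs stood in ratios from 266 to 2082 in blood that was never irradiated. miR-363-3p was steady, at 10.1, 12.9 and 12.6 CPM at 4 weeks, against 10.0, 13.6 and 11.5 CPM at 1 week. miR-144-3p was lowest in replicate 3 at 4 weeks and highest in it at 1 week, with 156, 86.5 and 73.5 CPM at 4 weeks, against 55.7, 45.1 and 125 CPM at 1 week. Of the 7 red cell miRNAs, all passed the filter, 4 had a positive and 3 a negative log2 fold change, from -0.43 for miR-486-5p to 0.49 for miR-144-3p, and the median was 0.03 beside 0.01 over all miRNAs tested.

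The 3 lymphocyte miRNAs that passed the filter had their highest values where miR-16-5p and miR-451-5p had their lowest. miR-150-5p, abundant in mature lymphocytes, had 71.0, 21.9 and 197 CPM at 4 weeks, against 32.4, 58.8 and 265 CPM at 1 week. Its highest value came from replicate 3 in both weeks, and the weeks overlapped (log2 fold change -0.29, SE 0.75, adjusted p = 1). miR-342-3p, also of lymphocytes, had 10.1, 7.46 and 19.4 CPM at 4 weeks, against 7.30, 5.57 and 13.7 CPM at 1 week, and miR-181a-5p, which tunes T cell receptor signalling, had 1934, 1908 and 2873 CPM, against 1981, 1772 and 3194 CPM. All 3 were highest in replicate 3 of both weeks. The other 3 of the list, miR-150-3p, miR-342-5p and miR-155-5p, had 0 to 5 counts and were not tested, and none of the list was called.

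Among 6 myeloid and leukocyte miRNAs, 5 passed the filter, 2 with a positive and 3 with a negative log2 fold change, and none was called. miR-223-3p, which restrains neutrophil production, had 8.45, 17.4 and 7.21 CPM at 4 weeks, against 18.2, 16.1 and 4.58 CPM at 1 week. miR-142-3p, found in all blood lineages, had 47.9, 34.3 and 32.0 CPM at 4 weeks, against 42.9, 32.2 and 33.2 CPM at 1 week, a narrow range in both. Of the 6 platelet and endothelial miRNAs, 2 had a positive and 4 a negative log2 fold change, and their median was -0.25.

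The clusters and families gave no call either. The let-7 family, repressors of growth genes such as Hmga2, had 1 positive and 7 negative log2 fold changes among the 8 of 9 members that passed the filter, with a median of -0.29 beside 0.01 over all miRNAs tested. let-7f-5p had 1657, 2633 and 750 CPM at 4 weeks, against 3658, 3123 and 1065 CPM at 1 week. let-7i-5p had 2420, 3235 and 1323 CPM at 4 weeks, against 4440, 3475 and 1473 CPM at 1 week. In both, replicate 3 of each week was lowest and the weeks overlapped. let-7d-5p did not follow this order, at 222, 501 and 643 CPM at 4 weeks, against 438, 492 and 411 CPM at 1 week.

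The miR-17-92 cluster had 4 positive and 4 negative values, the miR-106b-25 cluster 1 positive and 4 negative, and the miR-26 family 2 negative. All 5 miR-30 members were negative and within 0.11 of 0 on the log2 scale. In the miR-23, miR-27 and miR-24 clusters, 4 of 5 were positive, and 2 of them, miR-23b-3p and miR-24-3p, had an unadjusted p under 0.05. Over the 4 members of the miR-181 family the median was -0.03, and miR-103-3p and miR-107-3p were at -0.02 and 0.38. Of miRNAs known from other tissues, miR-133a-3p of muscle was at 0.86, the 3 liver miRNAs at a median of 0.06, and 2 of 5 smooth muscle and mesenchymal miRNAs passed the filter, miR-143-3p at -0.19 and miR-10a-5p at 0.14.

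These signs depend on the scaling. With library totals the median of all tested miRNAs was 0.30, the miR-30 family had 4 positive and 1 negative value, the miR-181 family 4 positive, the miR-106b-25 cluster 4 positive and 1 negative, and let-7 had 3 positive and 5 negative with a median of -0.13.

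Some rows of the table had counts that tracked each other and may share reads. miR-3596b had 391, 992 and 1421 counts at 4 weeks, where let-7d-5p had 394, 1008 and 1427, and at 1 week it had 953, 779 and 343 counts beside 959, 796 and 359. Its ratio to let-7d-5p stayed between 0.955 and 0.996. The homolog bta-miR-26c tracked miR-26a-5p at 1.09 to 1.13 times its counts in all 6 libraries. miR-3596a, complementary to let-7a-5p in all 22 bases, had 4.08 to 6.85 times the counts of let-7a-5p. No source used here states that reads were counted by strand, so such values are uncertain.

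Levels varied widely inside both groups. The SD of log2(CPM + 1) over the 3 libraries of a group had a median of 0.53 at 4 weeks and 0.56 at 1 week over the 201 miRNAs with a mean of 10 CPM or more. An SD over 1, a typical deviation of more than 2-fold, occurred for 46 of 289 miRNAs (15.9%) at 4 weeks and for 82 (28.4%) at 1 week. The 289 include 88 miRNAs with a mean under 10 CPM. Among the 59 known rat miRNAs at 50 CPM or more, such an SD occurred for 3 (5.1%) at 4 weeks and 10 (16.9%) at 1 week. The SD was larger at 4 weeks for 120 and larger at 1 week for 168 of the 289. The 4 irradiated blood groups, measured the same way over all 289, had median SDs of 0.47, 0.34, 0.36 and 0.49 at 1, 2, 3 and 4 weeks, beside 0.51 in the 4 week controls and 0.61 in the 1 week controls. These SDs rest on 3 libraries each and were not tested against each other.

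Replicate 3 carried much of this spread. Without it the median SD was 0.32 at 4 weeks, against 0.18 at 1 week, where leaving out replicates 1 or 2 gave 0.43 and 0.51 at 4 weeks, and 0.58 and 0.65 at 1 week. By this median the 1 week group was the more variable with replicate 3 included, and the 4 week group without it. The order with replicate 3 also turned over the 59 known rat miRNAs at 50 CPM or more, with medians of 0.51 at 4 weeks and 0.46 at 1 week, and with a pseudocount of 10, at 0.45 and 0.41. Among the 59 known rat miRNAs at 50 CPM or more, replicate 3 was lowest of its week for 32 at 4 weeks and for 36 at 1 week, and it was highest for 19 and for 22. It was lowest in both weeks for 26 and highest in both for 14. Those lowest in both included miR-16-5p, miR-451-5p, miR-144-5p, miR-21-5p, miR-26a-5p, let-7f-5p and let-7i-5p. Those highest in both included miR-150-5p, miR-181a-5p, let-7d-3p, miR-328a-3p, miR-423-3p, miR-320-3p and miR-484. These names were chosen after the values were seen, and the calls between the weeks remained 1 higher and 0 lower with both replicates 3 left out.

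**Figure D4:**
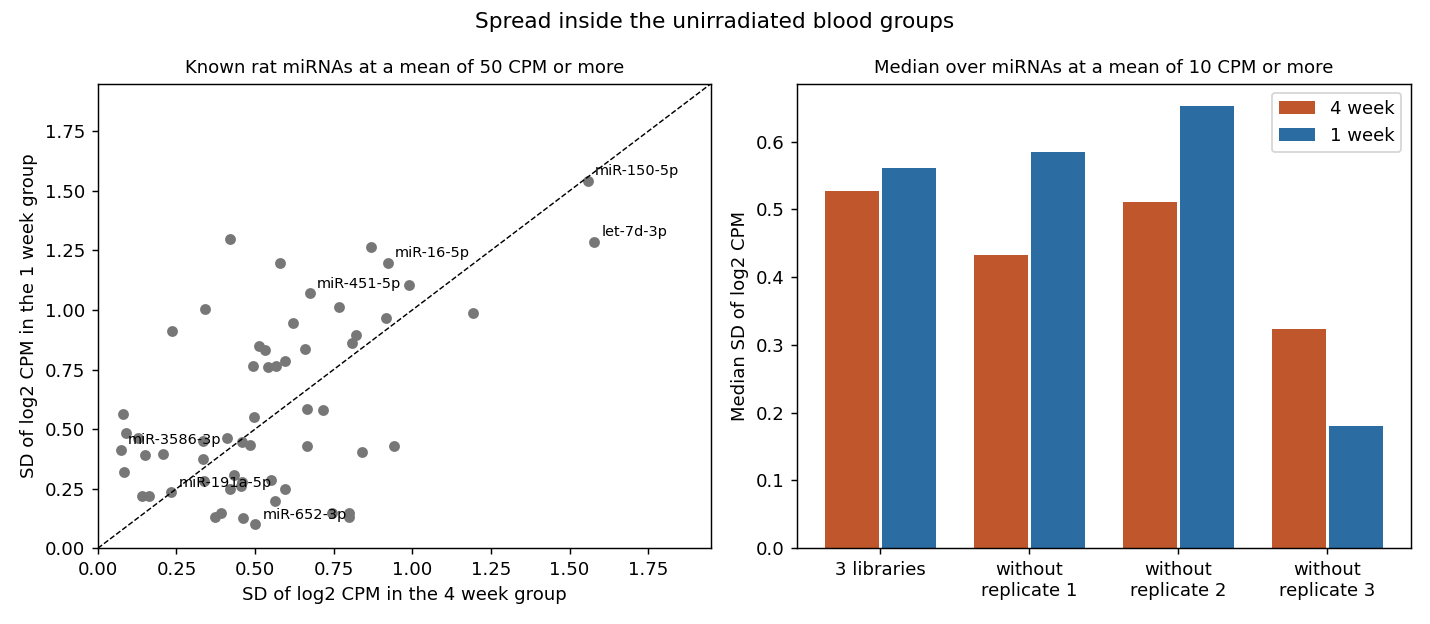
Left, SD of log2 CPM over the 3 libraries of the 4 week group (x axis) and of the 1 week group (y axis) for 59 known rat miRNAs, with the line of equal SD dashed. Right, median SD over miRNAs with a mean of 10 CPM or more, with all 3 libraries and with each replicate left out. Without replicate 3 the medians drop to 0.32 at 4 weeks and 0.18 at 1 week.

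The most variable known rat miRNAs at 4 weeks were let-7d-3p, miR-150-5p, miR-101a-3p, miR-423-3p and miR-320-3p. let-7d-3p, the passenger arm of let-7d, had 40.0, 27.8 and 222 CPM at 4 weeks, against 56.1, 45.1 and 237 CPM at 1 week. At 1 week the most variable were miR-150-5p, miR-151-3p, let-7d-3p, miR-328a-3p and miR-16-5p, and miR-151-3p had 1277, 874 and 1554 CPM at 4 weeks, against 745, 829 and 3721 CPM at 1 week. miR-150-5p and let-7d-3p were among the 5 most variable of both weeks.

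The steadiest at 4 weeks were miR-3586-3p, miR-93-5p, miR-30d-5p, miR-30c-5p and miR-151-5p. miR-93-5p, of the miR-106b-25 cluster, had 468, 477 and 429 CPM there, against 618, 539 and 297 CPM at 1 week. At 1 week the steadiest were miR-652-3p, miR-181d-5p, miR-15b-5p, let-7d-5p and miR-3596b. No miRNA was among the 5 steadiest of both weeks. miR-15b-5p, which shares the seed of miR-16-5p, had 202, 296 and 331 CPM at 4 weeks, against 301, 274 and 251 CPM at 1 week. Its highest and lowest of the 6 libraries were 1.64-fold apart, and those of miR-16-5p 4.65-fold.

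Pairs of libraries gave the same picture without group means. Over the 59 known rat miRNAs, the median absolute log2 difference between 2 libraries was 0.45 to 0.83 within the 4 week group, 0.23 to 0.84 within the 1 week group and 0.14 to 0.79 between libraries of different weeks. The mean over pairs was 0.66, 0.63 and 0.51. The most alike pair of all 15 came from different weeks, 4 week replicate 2 and 1 week replicate 2, at 0.14, with 1 of 59 miRNAs more than 2-fold apart. Replicates 3 of the weeks differed by 0.44 from each other and by 0.64 to 0.84 from the other libraries. Within the 1 week group, 25 of the 59 differed by more than 2-fold between replicates 1 and 3, and 0 between replicates 1 and 2.

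**Figure D5:**
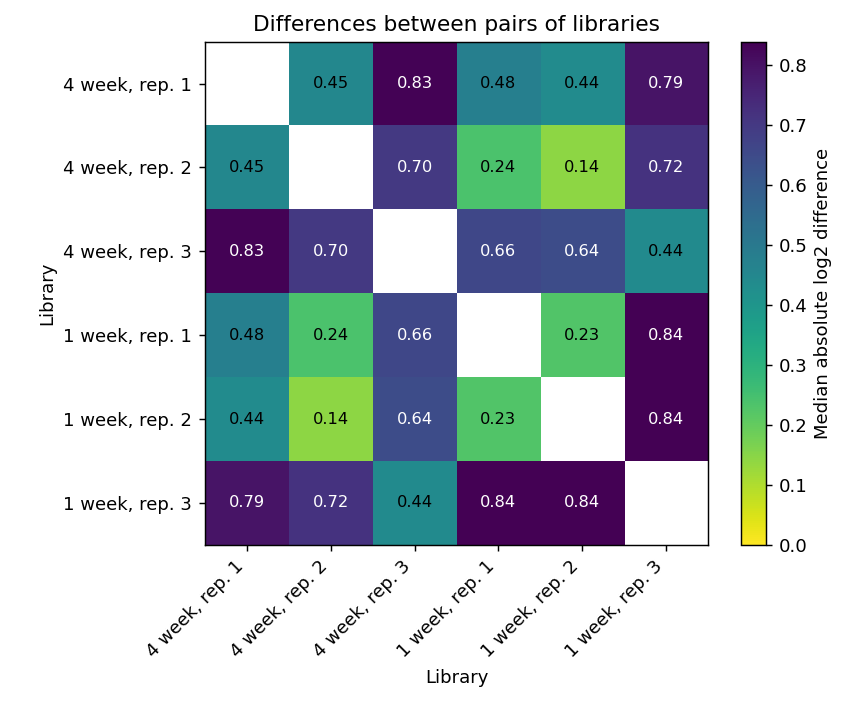
Median absolute log2 difference in CPM between each pair of the 6 unirradiated blood libraries, over 59 known rat miRNAs with a mean of 50 CPM or more, with the 4 week libraries first. Yellow marks a small and dark blue a large difference. The smallest value, 0.14, joins replicate 2 of the weeks, and the rows of both replicates 3 are dark except where they meet, at 0.44.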

How the data were processed

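Small RNA libraries of whole blood (18) and lung (18), 3 per group, were sequenced after Illumina TruSeq small RNA preparation. Adapters were removed by the authors with Trim Galore 0.2.5, reads were mapped with Bowtie 1.1.1 to miRBase, and new loci were predicted with miRanalyzer. The submitters' notes name the build rn4. The authors deposited raw read counts for 947 miRNAs, whose PCR reads are not independent molecules, so floors cover counting error only. For the analysis edgeR 4.0.16 was run in R 4.3.3 (filterByExpr, TMM, quasi-likelihood test, group only, all 18 blood libraries), with Benjamini-Hochberg adjustment at 0.05. The change in blood minus that in lung was fitted over all 36 libraries. CPM are counts scaled to library totals and TMM factors, with a pseudocount of 1 on the log2 scale. Single values were compared by two-sided exact permutation (SciPy). The fit was tested on simulated data. Members and the 17 miRNA lists were chosen with earlier results of these data known. Named miRNAs were the 8 smallest p in each direction and the 10 most abundant of the miRNAs listed as known rat (miR-486-5p is listed as a homolog), the 5 with the largest and the 5 with the smallest SD per group at a mean of 50 CPM or more, new loci past the threshold, 3 homologs, list members and miR-191a-5p. Alternatives covered filter, scaling, tool (DESeq2 1.42.0, limma 3.58.1), the libraries included and the replicate number as a block.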

Additional observations from a re-analysis of the deposited data

Results flagged for a closer look

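The new locus on chromosome 19 was the single result marked for a closer look, because its change between 4 weeks and 1 week differed between blood and lung. In blood it had 58, 80 and 77 counts at 4 weeks, against 0, 0 and 0 counts at 1 week, and in lung it had 8474, 2830 and 934 counts at 4 weeks, against 4407, 2562 and 27 counts at 1 week. The test of the change in blood minus that in lung gave an adjusted p of 0.000171 (edgeR, 576 miRNAs), and 0.00026 without 1 week lung replicate 3, which had 11621 counts in all. With 1 week blood replicate 1 exchanged with 15 Gy 1 week blood replicate 2, the adjusted p was 0.894. With 3 libraries a group, no group was large enough to be searched for a single outlying library.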

How the results depend on the processing

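The count of 1 miRNA higher at 4 weeks and 0 lower held without a filter, with RLE factors, with library totals, with miR-191a-5p scaling, without miR-486-5p, in a fit of the 6 libraries alone, with DESeq2, and with each of the 6 libraries left out in turn (1 to 1 higher, 0 to 0 lower). It also held with both replicates 3 left out, an alternative chosen after seeing the data. It became 0 higher with a mean count above 100, with known rat miRNAs only (these 2 settings drop the called locus), with limma-voom, and with 1 week replicate 1 exchanged for the irradiated library. The cause was not tested for limma-voom, and in the exchange the locus has 19 counts in 1 library of the 1 week group. At an unadjusted p under 0.05 the counts were 9 and 3. No known rat miRNA was called under any of these settings. Beside -0.01 for known rat miRNAs under TMM, their median log2 fold change was 0.25 with library totals, -0.10 with RLE factors and -0.71 with miR-191a-5p scaling, and 25 and 26 of 91 named miRNAs, none called on either side, changed sign with library totals and with miR-191a-5p scaling. The difference in the number of miRNAs with a count was 12.3 with rat-named miRNAs only, against 42 with all. Leaving out each library in turn gave a difference of -2.79 to 0.677 percentage points in the share of miR-486-5p, 23.5 to 55 miRNAs with a count and -0.0187 to 0.657 percentage points in the share of new loci. The median SD then ran from 0.32 to 0.51 at 4 weeks and from 0.18 to 0.65 at 1 week, and other scalings, pseudocounts and abundance limits gave 0.45 to 0.55 at 4 weeks and 0.41 to 0.76 at 1 week. For the change in blood minus that in lung, 1 miRNA was called without 1 week lung replicate 3, with RLE factors, without a filter and with limma-voom, and 0 were called with 1 week replicate 1 exchanged (limma-voom and the exchange were chosen after seeing the data).

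The replicate numbers were not taken to pair the libraries in the main fit. The deviations of same-numbered libraries from their group means correlated at 0.0151, 0.262 and 0.391 for replicates 1, 2 and 3 over 289 miRNAs. Whether libraries of the same number share a source of variation was not tested. Libraries with numbers 2 and 3 correlated best with their own number, and 4 week replicate 1 correlated best with 1 week replicate 2 (0.157). With a replicate block the counts were 1 higher and 0 lower.

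Depth outside miR-486-5p, 70470 to 236705 counts a library, limits what can be seen: miR-24-3p, at a mean of 12.7 CPM, rested on 11 to 38 counts a library.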
